A study of Mus musculus with 11 samples.

Results

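In the 10X Chromium library prepared by the hepatic stellate cell (HSC) isolation from mice given CCl4 for 6 weeks, 427 of 5454 cells held at least 2 unique molecular identifiers (UMIs) of Saa3 and were selected on those UMIs. The 5 10X libraries of the series held 30999 cells in all with at least 300 genes and at most 30% of their UMIs on mitochondrial genes. The mice were adult male Pdgfrb-BAC-eGFP reporters on a C57BL/6 background, in which a bacterial artificial chromosome with the Pdgfrb gene drives eGFP in mesenchymal cells, and all libraries were made from eGFP-positive cells sorted as negative for CD45 and CD102. The libraries used here were from uninjured mice with the HSC isolation, from mice 72 h after a single dose of CCl4 with the HSC isolation, from mice given repeated CCl4 for 6 weeks with the HSC isolation, and from uninjured and 6-week CCl4 mice with the fibroblast isolation. Each library pooled cells of 3 mice, which cannot be told apart in the counts, so that every condition had 1 library and no test between groups was made. Intervals are exact 95% intervals and cover counting error only.

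Saa3 encodes serum amyloid A3, a secreted apolipoprotein-like member of the acute phase family that is made outside hepatocytes, for example in adipose tissue, macrophages and inflamed mesenchyme. In mesenchymal cells it is known as a gene that follows cytokine signals such as interleukin 1 and tumour necrosis factor, through C/EBP and NF-kB factors. HSCs are the pericytes of the hepatic sinusoid. In healthy liver they store vitamin A esters, which the enzyme encoded by Lrat makes, and they express the secreted matrix glycoprotein gene Reln, and after injury they can produce fibrillar collagen.

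The 427 cells were not of 1 kind. They comprised 406 cells with 2 to 7 Saa3 UMIs, whose transcriptome was close to that of cells of the same depth without Saa3, and 21 cells with 23 to 4920 Saa3 UMIs, which had 0.156 of the Lrat and 0.144 of the Reln level of depth-matched cells and high summed levels of Hp, Lcn2, C3, Ctla2a, Timp1 and fibrillar collagen genes. Ctla2a UMIs were in 61.9% of the 21 cells, and 3 cells held 91.6% of them. No cell held between 8 and 22 Saa3 UMIs. The division at 10 UMIs was set after this gap had been seen. Those 21 cells, 0.385% of the library, held 21575 of its 23891 Saa3 UMIs (90.3%).

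**Figure D1:**
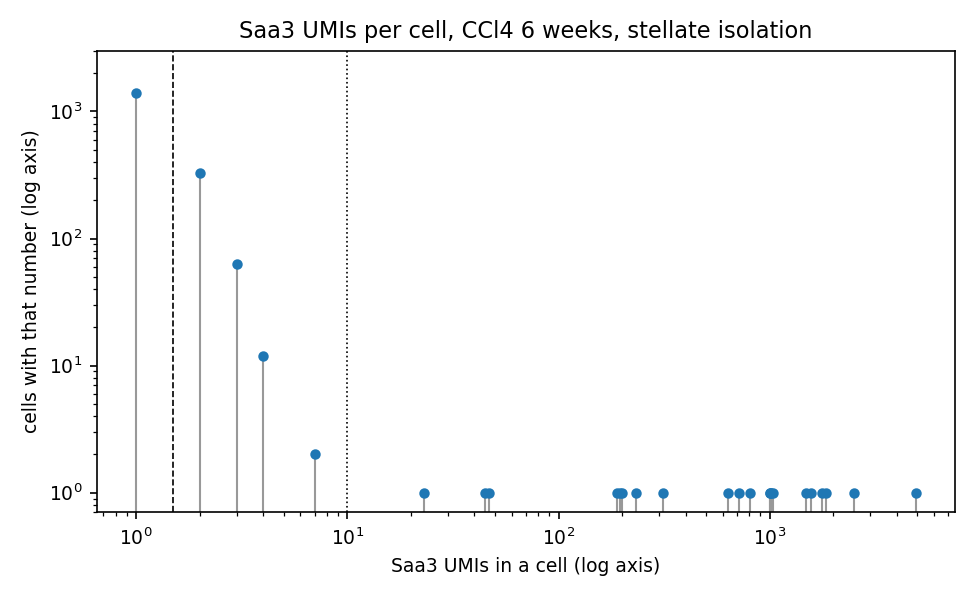
Number of cells (y axis, log) with each number of Saa3 UMIs (x axis, log) in the 6-week HSC library, with each point 1 number of UMIs and the 3620 cells at 0 left out. The dashed line, between 1 and 2, marks the selection and the dotted line 10 UMIs. The 2 sets of cells are apart, with 2 cells at 7 UMIs and the next cell at 23.

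The Saa3 gene (ENSMUSG00000040026) lies on the minus strand at chr7:46711998-46715700 of GRCm38, beside Saa1 and Saa2. The 200 bases before the RefSeq start of Saa3, at chr7:46715677-46715876, are shown with those of C3, a gene that was high in the same cells (chr17:57228137-57228336), and of Lrat, which was low in them (chr3:82903975-82904174). All 3 are on the minus strand of GRCm38.p6 and read 5′ to 3′, and capitals mark the letters of a C/EBP motif, written TTNNGNAA and searched on both strands.
Saa3: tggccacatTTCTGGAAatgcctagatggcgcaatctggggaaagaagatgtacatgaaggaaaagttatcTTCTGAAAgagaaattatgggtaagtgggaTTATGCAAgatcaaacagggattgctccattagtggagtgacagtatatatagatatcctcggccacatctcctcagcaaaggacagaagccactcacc
C3: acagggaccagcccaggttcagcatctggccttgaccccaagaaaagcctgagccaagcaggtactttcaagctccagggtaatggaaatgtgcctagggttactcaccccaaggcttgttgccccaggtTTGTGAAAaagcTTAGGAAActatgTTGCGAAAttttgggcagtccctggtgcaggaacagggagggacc
Lrat: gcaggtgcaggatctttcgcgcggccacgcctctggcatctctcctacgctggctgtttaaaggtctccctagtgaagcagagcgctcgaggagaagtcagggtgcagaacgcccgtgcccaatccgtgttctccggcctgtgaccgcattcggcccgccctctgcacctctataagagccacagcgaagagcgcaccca
The stretches of Saa3 and C3 each held 3 matches and that of Lrat held 0. At the same length, 30% of 32851 RefSeq promoters held the motif, which has few fixed letters. The STAT motif TTCNNNGAA was in 5.49% of promoters and the NF-kB consensus in 3.18%, and neither matched in these 3 stretches. Of the 15 leading genes of the 21 cells, given below, 14 had a promoter in the table, and 8 of these had the C/EBP motif in at least 1 promoter, against 33.2% of all 27025 genes. They held it in 12 of their 19 promoters. The STAT motif was in 3 of the 14 genes, against 6.38% of all genes, and the NF-kB consensus in 2, against 3.65%.

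Saa3 was detected in few cells outside this library. In the uninjured HSC library it had 0 UMIs in 6850 cells, where a limit of 3 cells stands for a share of 0.0438% and the exact upper bound is 0.0538%. These limit cells with a UMI at this depth, not cells that express the gene. At 72 h, 43 of 7310 cells held a UMI, 19 held at least 2 and 10 held at least 10, with a maximum of 44. In the fibroblast isolation, 14 of 5737 uninjured and 67 of 5648 CCl4 cells held a UMI, and 2 and 8 of them held at least 2. At 6 weeks in the HSC isolation the counts were 1834 cells with a UMI (33.6%, 32.4 to 34.9%) and 427 with at least 2 (7.83%, 7.13 to 8.57%). Median depth was 9893 UMIs in this library, 11344 at 72 h, 6718 in uninjured HSCs and 4300 and 5097.5 in the uninjured and CCl4 fibroblast isolations. With each cell thinned to 2000 UMIs, which left out 114, 344 and 375 of the cells of the uninjured HSC, the uninjured fibroblast and the CCl4 fibroblast isolations and none of the others, the share with at least 2 UMIs at 6 weeks was 0.807% (0.587 to 1.08%), against 0.123% at 72 h, 0.0569% and 0.0185% in the CCl4 and uninjured fibroblast isolations, and 0 cells in uninjured HSCs.

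Below 10 UMIs, the share of cells with Saa3 followed the depth of the cell and its level did not. With these 5433 cells divided into 5 depth classes, from the shallowest to the deepest, the share with at least 1 UMI was 18.7%, 29.1%, 35.1%, 39.3% and 44.7%. The Saa3 level was 49.4, 45.2, 44.4, 46.6 and 41.7 CPM, that is, UMIs summed over cells and scaled by their total without Saa3. The level was also similar in cells that differ in their other genes. It was 35.1 CPM (26.5 to 45.6) in 111 cells with UMIs of at least 3 proliferation genes, 56.0 (42.7 to 72.1) in 94 cells with at least 3 hepatocyte markers, 43.5 (37.9 to 49.6) in the 544 cells of lowest Lrat plus Reln and 44.7 (42.9 to 46.5) in all 5433. Their shares with a Saa3 UMI were 32.4%, 47.9%, 31.8% and 33.4%, at median depths of 12501, 11198.5, 9787 and 9887 UMIs. A UMI of free RNA and one made in the cell look alike in these counts, and none of these 3 classes lacked Saa3.

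The part of free RNA in the Saa3 UMIs of the 406 cells was not tested.

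By the label the cells are HSCs, and this was checked with 7 stellate markers. In the 406 cells Lrat was at 1491 CPM (1456 to 1526) against 1515 (1480 to 1551) in 406 depth-matched cells without Saa3, and Reln at 1273 (1241 to 1306) against 1287 (1254 to 1319). Vipr1, Colec11, Pth1r, Ecm1 and Hgf had ratios from 0.926 to 1.11, and all 406 cells held at least 3 of the 7 markers. The label holds for them. In the 21 cells Lrat was at 215 CPM (170 to 269) against 1379 (1323 to 1437) in 105 cells without Saa3 matched for depth, and Reln was at 195 (152 to 247) against 1354 (1299 to 1412). Vipr1, Colec11, Pth1r, Ecm1 and Hgf stood at 0.136, 0.126, 0.142, 0.245 and 0.124 of the level in matched cells. Per cell, Lrat was lowest at 0, with a median of 185 and a highest value of 816 CPM, and the matched cells ranged from 0 over a median of 1396 to 3057 CPM. All 21 cells were below the median of the matched cells for Lrat, Reln, Colec11 and Ecm1, although the ranges overlapped. Of the 5433 cells with fewer than 10 Saa3 UMIs, 28 (0.515%) had a summed Lrat and Reln level at or under the median of the 21. Each of the 21 still held UMIs of at least 3 stellate markers, at these low levels. In level the 21 cells therefore go against the label, and they are named here by their Saa3 UMIs.

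**Figure D2:**
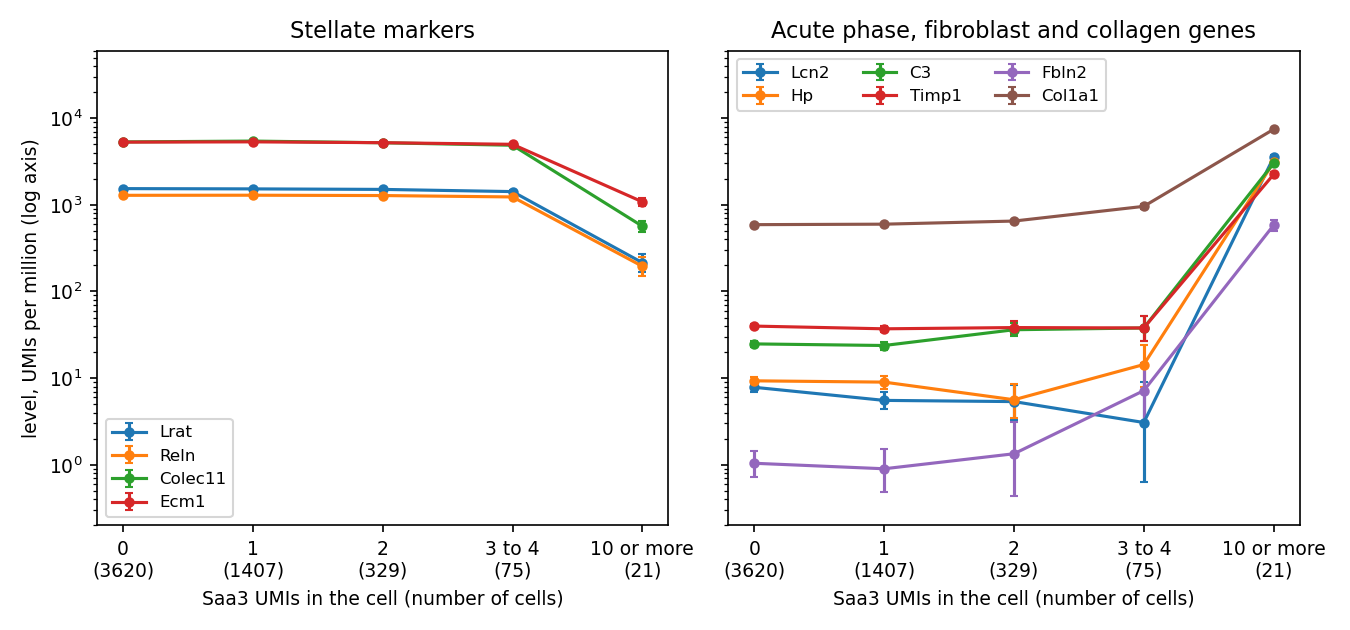
Level in CPM (y axis, log) of stellate markers (left) and of acute phase, fibroblast and collagen genes (right) by the number of Saa3 UMIs in the cell (x axis, with the number of cells). Points are sums over cells and bars exact 95% Poisson intervals, and the 2 cells with 7 UMIs are left out. Levels of the stellate markers are similar from 0 to 2 UMIs and lower at 10 or more. C3 was at 24.8 CPM (23.1 to 26.6) with 0 UMIs and 36.2 (30.3 to 42.8) with 2. Col1a1 was at 590 CPM (582 to 599) with 0 UMIs, 650 (624 to 676) with 2 and 960 (900 to 1024) with 3 or 4. The last value, over 75 cells, was not computed without the cell with the most UMIs. Both are far higher at 10 or more.

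Just inside and outside the selection, the 329 cells with 2 UMIs and the 1407 cells with 1 UMI had Lrat at 1507 and 1527 CPM, Reln at 1280 and 1291, Hp at 5.63 and 8.99, Lcn2 at 5.36 and 5.53 and Col1a1 at 650 and 598. C3 was at 36.2 CPM (30.3 to 42.8) with 2 UMIs and at 23.8 (21.3 to 26.5) with 1. In the 75 cells with 3 or 4 UMIs Col1a1 was at 960 CPM (900 to 1024) and Lrat at 1421 (1347 to 1498). The Col1a1 level there rests on 937 UMIs, and its level without the cell with the most was not computed. Clec3b, a fibroblast marker, was at 41.0 CPM (29.3 to 55.8) there, from 40 UMIs in 4% of these cells. Fbln2 was at 7.17 there, from 7 UMIs in 2.67% of these cells.

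Of other cell types, the 21 cells carried fibroblast markers. UMIs of at least 3 of 6 fibroblast markers were in all 21, against 37 of the 406 cells and 30 of their 406 matched cells. Such a count depends on depth, with medians of 17785, 11255.5 and 11254.5 UMIs in these sets. The count in the 105 cells matched to the 21 is not given here. Of the 6 markers, Gpx3 and Dpt had UMIs in 66.5% and 38.1% of all cells without Saa3. Over a list of 9 fibroblast markers the summed level was 3340 CPM against 614 in matched cells, most of it Gpx3, a secreted glutathione peroxidase gene (2072 CPM, 1926 to 2227, against 343, 315 to 373). Fbln2, which encodes the matrix protein fibulin 2, was at 581 CPM (505 to 665) with UMIs in 19 of 21 cells, against 1 UMI in the 105 matched cells. Col15a1, a collagen gene of basement membrane zones, was at 207 CPM (162 to 259) against 9.70 (5.54 to 15.8). Dpt was at 182 CPM against 168, with overlapping intervals, and Clec3b had 0 UMIs. UMIs of both Fbln2 and Col15a1 were in 26 cells of the library, of which 13 were among the 21 and 3 among the 406.

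Of other lineages, all 6 endothelial and all 5 Schwann markers had 0 UMIs in the 21 cells. Of 8 leucocyte markers 6 were at 0, Ptprc and Tyrobp included, and the summed level of 47.5 CPM, against 6.67 in matched cells, was mostly Csf1r at 41.9 CPM in 7 cells. Of 6 hepatocyte markers 4 were at 0 and the sum was 11.2 CPM against 58.8 in matched cells, led by Cyp2e1 at 8.38 CPM. Of 5 cholangiocyte markers 3 were at 0, with a sum of 16.8 CPM against 1.82, led by Sox9. Of 8 mesothelial markers 5 were at 0, Upk3b included, Msln had 1 UMI, and the sum of 176 CPM was mostly Wt1, a transcription factor gene, at 162 CPM (123 to 209) in 15 cells against 38.8 in matched cells. Smooth muscle markers summed to 360 CPM against 1118, and Pln, Myh11 and Cnn1 were at 0. None of the 21 and 31 of the 406 cells (7.64%) were called doublets, against 26 of their 406 matched cells (6.4%) and 20 of the 105 cells matched to the 21 (19%). The call rests on the share of simulated doublets among 50 neighbours, which was 0.68 to 0.80 in the 21 cells. It cannot decide whether they are doublets, because a set of 21 cells is smaller than its own neighbourhood. No cell barcode of the 21 occurred in another library, and the whole library shared 33 to 56 barcodes with each of the others.

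The 21 cells were compared first with the 105 matched cells, gene by gene. A gene was compared if it reached 50 CPM in the higher group and had UMIs in at least 5 of the 21 cells or, where lower in them, in at least 25% of the matched cells. It was counted as higher or lower at a 2-fold ratio with intervals apart. Of 3333 genes, 372 were higher (11.2%) and 652 lower (19.6%). The median log2 ratio of all of them was -0.23. Of these genes, 2871 reached 50 CPM with UMIs in 25% of the matched cells, and 103 of them were higher and 652 lower, with a median ratio of 0.776. The other 462 were compared because of their level in the 21 cells, and 269 of them were higher, so that counts of higher genes depend on which genes were admitted.

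Ctla2a, which encodes a cysteine protease inhibitor, was at 3762 CPM (3563 to 3968) against 4.85 (2.09 to 9.55), although its reads can be shared with the near-identical Ctla2b. Serpinf1, the gene of pigment epithelium-derived factor, was at 1176 CPM (1066 to 1294) against 3.03 (0.984 to 7.07). Hp, haptoglobin, was at 3080 CPM (2901 to 3268) against 8.48 (4.64 to 14.2), a ratio of 363. C3, the central complement component, was at 3010 CPM (2833 to 3196) against 21.2 (14.8 to 29.5), a ratio of 142. Slpi was at 1044 CPM (941 to 1156) with UMIs in 14 cells, against 1 UMI in matched cells, and was at 654 CPM (570 to 746) without the cell that held the most.

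Per cell these genes did not behave alike. Hp ranged from 0 over a median of 1293 to 6827 CPM and was above every matched cell in 20 of 21 cells. C3 ranged from 277 over 1955 to 6222 CPM, with 17 cells above every matched cell. Ctla2a ranged from 0 over 357 to 18694 CPM, and 3 cells held 91.6% of its UMIs. Cyp1b1, a cytochrome P450 gene, was present in all 21 cells at 58.2 to 1071 CPM, each above every matched cell. Fabp4, a fatty acid binding protein gene of adipocytes and endothelium, was at 684 CPM against 5.45.

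The other leading genes were Fbln2, Igfbp6, Egln3, Fndc1, Serpinb2, Dmkn, Cyp1b1, Tnfrsf9, Ptgs2 and Pdpn. Igfbp6, an insulin-like growth factor binding protein gene, was at 466 CPM in 15 cells, Fndc1 at 343 CPM in 18 and Serpinb2 at 330 CPM in 8, each with 1 or 2 UMIs in matched cells. Egln3, a prolyl hydroxylase of the hypoxia response, was at 346 CPM (16 cells) and Dmkn at 299 CPM (14 cells), both with 0 UMIs in matched cells, which makes them at least 190-fold and 164-fold higher at the limit of 3 counts over the matched cells. Ptgs2, the inducible cyclooxygenase, was at 251 CPM in 13 cells. Pdpn, podoplanin, was at 229 CPM and present in all 21 cells, and Tnfrsf9, a receptor of the tumour necrosis factor family, was at 254 CPM in 6 cells, and at 139 CPM (102 to 185) without the 1 that held the most.

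**Figure D3:**
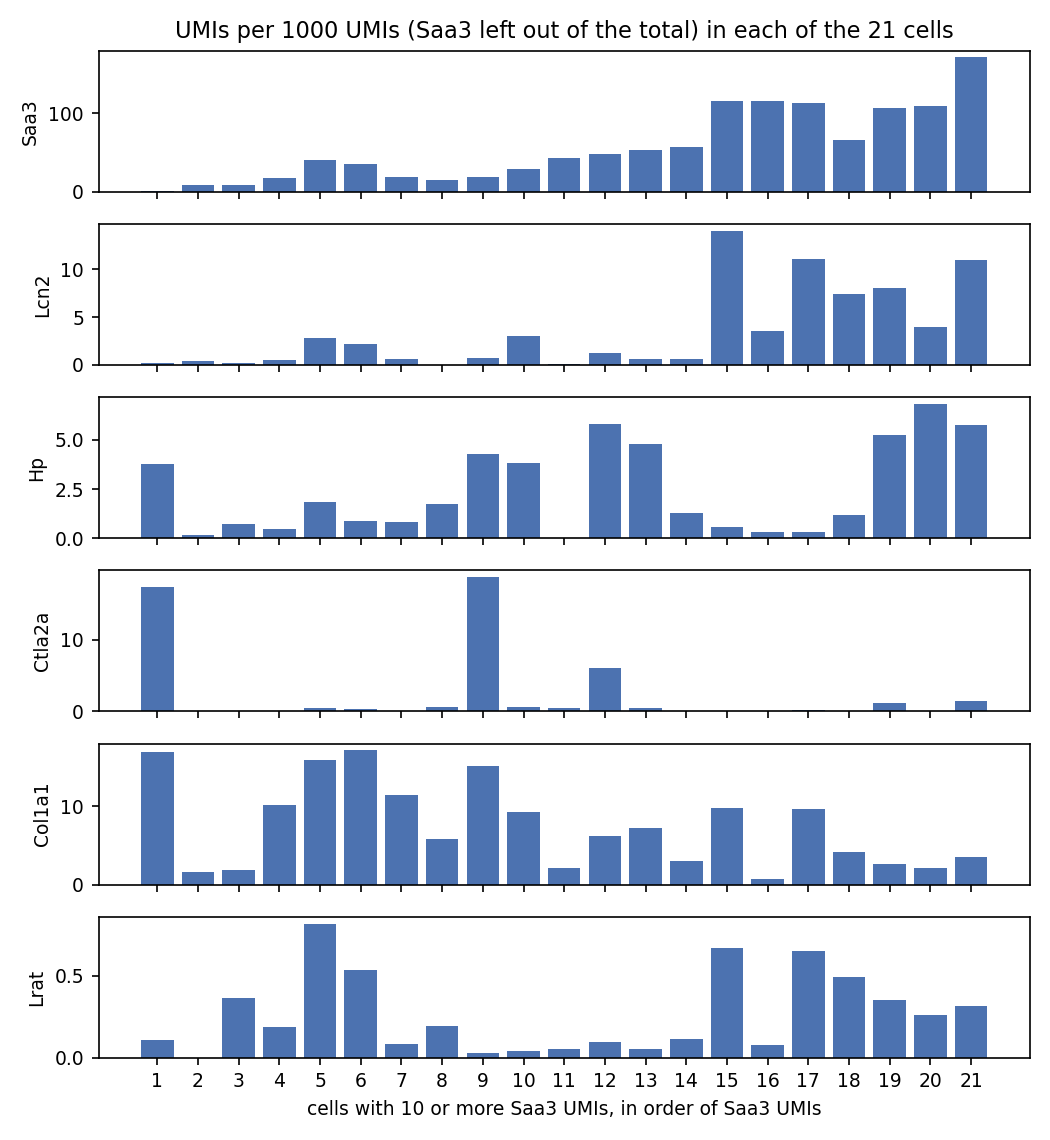
UMIs per 1000 UMIs (y axes, Saa3 left out of the total) of Saa3 and 5 other genes in each of the 21 cells, in order of Saa3 UMIs (x axis). Lcn2 is highest in cells at the right, 3 cells hold 91.6% of the Ctla2a UMIs, and Lrat is low throughout.

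The 10 genes of lowest ratio included Tcf21, a transcription factor gene of stellate and other mesenchymal cells, at 8.38 CPM (3 UMIs) against 286, Foxf1, another mesenchymal transcription factor gene, at 8.38 against 151, and P2ry14, a nucleotide-sugar receptor gene, at 8.38 against 179. Spry1, a feedback inhibitor of growth factor signalling, was at 14.0 against 228 CPM. Apold1, Adap2, Pf4 and Arhgap24 were each below 9 CPM. Stmn1 at 16.8 against 287 CPM and Cdk1 at 8.38 against 141 CPM mark dividing cells. Mki67, Top2a, Ccna2 and Ccnb1 had 0 UMIs in the 21 cells. The matched cells were rich in such genes. A list of 10 proliferation genes summed to 644 CPM in them and to 55.9 CPM in the 21 cells. It summed to 215 CPM in the cells matched to those with 2 to 9 Saa3 UMIs. Mki67 was at 9.55 CPM in all 3620 cells without Saa3, within its interval in the 21 cells (0 to 10.3). How far the choice of matched cells set these low ratios was not tested.

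Of 18 acute phase genes besides Saa3, 7 were compared in the 21 cells, 6 were higher and 0 lower. Of these 7, 4 were compared because of their level in the 21 cells, and of the 3 that reached the floor in matched cells, 2 were higher, Mt1 and Mt2 (median ratio 4.94). Lcn2, the siderophore-binding lipocalin 2, was at 3524 CPM (3332 to 3724) against 91.5 (77.5 to 107). Per cell it ranged from 0 over 1207 to 14042 CPM, with UMIs in 20 cells. Serpina3n, a serine protease inhibitor gene, was at 712 CPM against 37.0, Lbp, the lipopolysaccharide-binding protein gene, at 67.0 against 1.21, and Mt1 and Mt2, the metallothioneins, whose similar transcripts can share reads, at 8936 against 1807 and 5580 against 808. The neighbours Saa1 and Saa2, which hepatocytes make and whose reads can be shared between the pair, had 8 and 1 UMIs. Saa1 was thus at 22.3 CPM (9.65 to 44.0), against 4.01 (3.35 to 4.76) in all 3620 cells without Saa3. Saa2 was at 2.79 (0.0707 to 15.6) against 2.48 (1.97 to 3.08). The hepatocyte-made members Orm1, Orm2, Fga, Fgb, Fgg, Apcs and Saa4 had 0 UMIs. For Lcn2, 145 of the 256 UMIs in all 3620 cells without Saa3 were in 1 cell, which had 1 C3 UMI, 0 Hp UMIs and 0 Lrat UMIs of 23173, and it was among the matched cells. Without it Lcn2 was at 3.69 CPM (1.35 to 8.03) in the other 104 matched cells, from 6 UMIs.

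Regulators of inflammation varied more. Of 13 NF-kB targets compared, 4 were higher and 0 lower, and of the 8 that reached the floor in matched cells, 1 was higher, Sod2 (median ratio 1.23). The 4 were Tnfaip3, a feedback inhibitor of NF-kB (83.8 against 6.06 CPM), Tnfaip2 (120 against 13.9), Sod2 (310 against 110) and Bcl3. Nfkbia was at 656 against 434 CPM, a ratio of 1.51. Of 11 STAT3 and C/EBP genes, 3 were higher, Osmr, Fosl2 and Bcl3, and 1 was lower, Steap4, and of the 8 that reached the floor in matched cells, 1 was higher and 1 lower (median ratio 1.24). Osmr, the oncostatin M receptor gene, was at 237 CPM (190 to 294) against 43.6, and the leukaemia inhibitory factor receptor gene Lifr was at 47.5 (27.7 to 76.0) against 237. Cebpb was at 1301 against 931 CPM, Stat3 at 151 against 83.6 and Socs3 at 279 against 494, with none of them past the 2-fold rule. Of 9 receptors of cytokines and patterns compared, Osmr was higher and Lifr lower, and of the 7 that reached the floor in matched cells, 0 were higher and 1 lower (median ratio 0.778).

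Chemokine and cytokine genes went both ways, with 5 of 13 higher and 4 lower, and of the 9 that reached the floor in matched cells, 1 was higher and 4 lower (median ratio 0.749). Cxcl5, a neutrophil chemokine, was at 310 CPM (255 to 373) against 3.64 (1.33 to 7.91) and Il33, an alarmin, at 561 (486 to 645) against 36.4 (27.7 to 46.8). Tnfsf11 and Ccl7 were also higher. Cxcl10, an interferon-induced chemokine, was at 67.0 CPM (42.9 to 99.7) against 338 (310 to 367) and Cxcl14 at 22.3 against 227. Interferon response genes were lower, with 18 of 22 lower, 0 higher and a median ratio of 0.292. Ifi27l2a was at 592 CPM against 3941 and Iigp1 at 55.9 against 465. Antigen presentation genes had 4 of 6 lower and 0 higher among those that reached the floor in matched cells (median ratio 0.342), with B2m at 3480 CPM against 10111. The class II gene H2-Ab1, at 106 CPM in 11 cells, was compared because of its level in the 21 cells. Complement genes had 3 of 9 higher (C3, Cd55 and C1s1) and 1 lower, C2, and of the 6 that reached the floor in matched cells, 1 was higher and 1 lower (median ratio 1.25).

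Fibrillar collagen and activation genes had 9 of 23 higher and 5 lower, and of the 21 that reached the floor in matched cells, 7 were higher and 5 lower (median ratio 1.51). Col1a1 was at 7434 CPM (7154 to 7722) against 779 (737 to 823), Col1a2 at 6188 against 1291 and Col3a1 at 8523 against 2151. Per cell Col1a1 ranged from 778 over 6182 to 17143 CPM, all 21 cells were above the median of the matched cells, and 9 were above every one of them. Lox, a collagen cross-linking enzyme, was at 441 against 35.2 CPM and Timp1, the inhibitor of metalloproteinases, at 2240 (2087 to 2400) against 46.7 (36.8 to 58.3). Postn, at 61.4 against 405 CPM, and Tagln, at 94.9 against 592, were among the lower ones. Thinned to 4000 UMIs per cell, the sum of the 3 collagen genes was 89.3 ± 62.5 UMIs (SD over 21 cells) against 17.2 ± 17.8 in the matched cells, and 95.2% of the 21 were above the median of the cells matched to the 406. The SDs are spreads over cells of 1 library. Of 12 matrix proteases and inhibitors, 3 were higher (Timp1, Mmp23 and Timp3) and 1 lower, Adamts5, and of the 11 that reached the floor in matched cells, 2 were higher and 1 lower (median ratio 1.46).

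Genes of resting HSCs were lower in the 21 cells. Of 19 quiescent stellate genes compared, 18 were lower and 0 higher, with a median ratio of 0.142. Plin2, the lipid droplet gene, had a ratio of 0.962. Of 7 retinoid genes, 3 were lower, Lrat and Aldh1a1 among them, and 2 higher, Rbp4 (215 against 3.03 CPM) and Rdh10. Of the 5 retinoid genes that reached the floor in matched cells, 3 were lower and 0 higher (median ratio 0.44). The mural genes Rgs5 (271 against 2304 CPM) and Des (39.1 against 275) were low, Pdgfrb, whose promoter drives the eGFP used for sorting, was at 159 CPM (121 to 206) against 294, and Pdgfra was at 316 against 265. Both zonation lists, chosen by the study on uninjured HSCs, were lower, with 26 of 38 portal genes lower and 3 higher among those that reached the floor in matched cells (median ratio 0.202), and 14 of 23 central genes lower and 1 higher (0.271). Another 2 portal genes, both higher, were compared because of their level in the 21 cells. Ngfr, of the portal list, was at 25.1 against 129 CPM and Adamtsl2, of the central list, at 33.5 against 124. Immediate early genes (1 of 10 higher, 0 lower, median ratio 1.18), glucocorticoid response genes (1 of 4 higher and 1 lower among those that reached the floor in matched cells, 0.967) and heat shock genes (0 of 8, 0.775) showed no common direction.

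**Figure D4:**
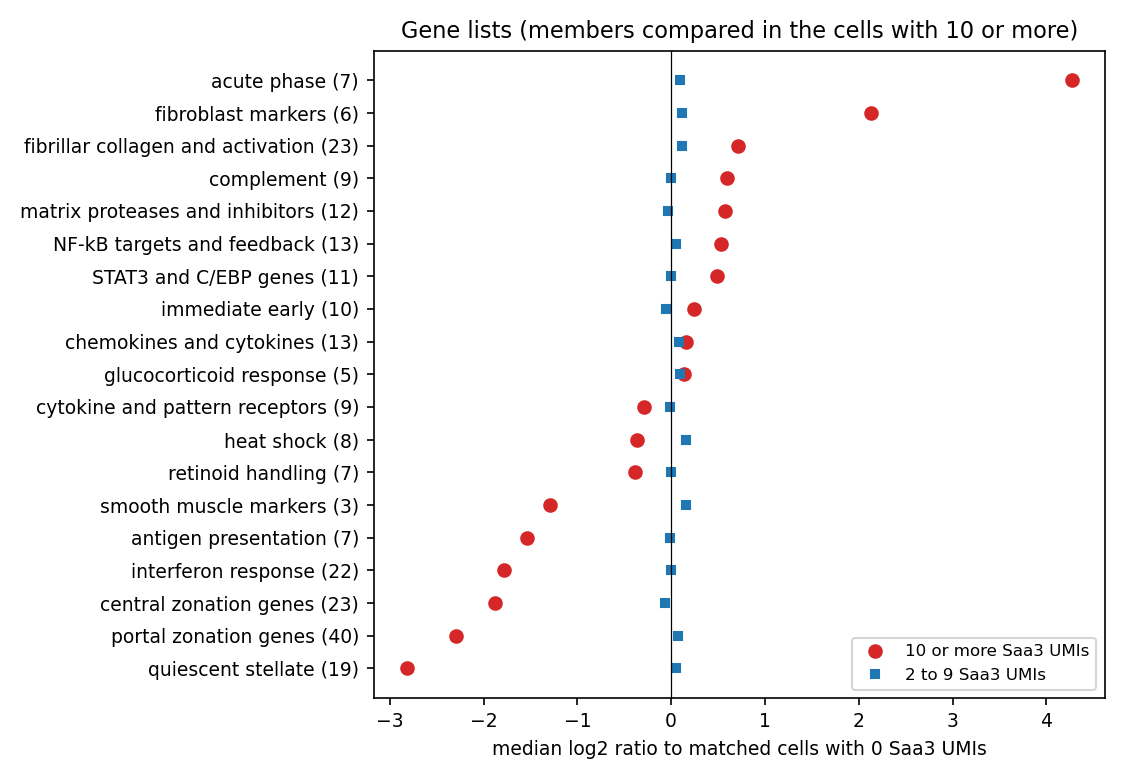
Median log2 ratio (x axis) of each gene list against depth-matched cells without Saa3, for the 21 cells with 10 or more Saa3 UMIs (circles) and the 406 cells with 2 to 9 (squares). Lists with at least 3 members compared in the 21 cells are shown, with that number in parentheses, and members that were compared because of their level in the 21 cells are included. Circles run from the quiescent stellate list to the acute phase list, and squares lie near 0.

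Among the 21 cells, the Saa3 level went with that of Lcn2 (Spearman's rho 0.83 over 21 cells) and Serpina3n (0.63), less with C3 (0.50) and hardly with Hp (0.16), Timp1 (0.01), Ctla2a (-0.08) or Col1a1 (-0.25). Ctla2a and Hp had a rho of 0.56. These are descriptions over cells that share a library. Saa3 made up 0.0833% to 14.6% of all UMIs of a cell, with a median of 4.18%. The cell with fewest Saa3 UMIs, at 23 beside 27584 other UMIs, held 477 Ctla2a, 104 Hp and 468 Col1a1 UMIs but 5 Lcn2 UMIs.

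The 406 cells with 2 to 9 UMIs were then compared with their 406 matched cells, for genes with at least 20 CPM in the higher group and UMIs in at least 10 cells. At a ratio of 1.5, 15 of 5593 genes were higher (0.268%) and 8 lower (0.143%). The central 90% of ratios ran from 0.845 to 1.2. Hist1h2ap, a histone gene, had the highest ratio, 5.28 (23.5 against 4.45 CPM), with 33.3% of its UMIs in 1 cell. C3 was at 36.4 CPM (31.2 to 42.2) against 19.5 (15.7 to 23.9), with 25.6% of its UMIs in 1 cell. Ccl2, a monocyte chemokine, was at 471 (451 to 491) against 306 (291 to 323), and 1 cell held 7.82% of its UMIs and 13.7% in the matched cells. Rhox5, a homeobox gene, was lowest at 5.50 against 22.9 CPM.

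The 15 leading genes of the 21 cells were rare in the 406. Of these genes, 14 were under the 20 CPM floor and 8 had at most 10 UMIs, so that a small difference in most of them was not detectable at this depth. The intervals overlapped for 13, of which 10 were at a higher level in the 406 than in the matched cells, Serpinf1 among them at 5.29 CPM (3.42 to 7.81) against 2.96 (1.62 to 4.97). They were apart for C3, given above, and for Igfbp6, at 16.5 CPM (13.0 to 20.6) against 2.33 (1.16 to 4.17). 1 cell held 63 of the 78 Igfbp6 UMIs and another held 44 of the 172 C3 UMIs. Without these cells Igfbp6 was at 3.18 CPM (1.78 to 5.25) and C3 at 27.1 (22.6 to 32.3). In the matched cells 1 cell held 10 of the 11 Igfbp6 UMIs and 1 held 8 of the 92 C3 UMIs, and without these Igfbp6 had 1 UMI and C3 was at 17.8 CPM (14.2 to 22.0), so that with the top cell left out on both sides the intervals were apart for both genes. The numbers of cells with a UMI were close for C3, 56 of the 406 and 55 of the matched cells, and small for Igfbp6, 7 and 2. These intervals do not cover the spread between cells. Lcn2 was at 4.87 CPM (3.08 to 7.30) against 3.81 (2.26 to 6.02), Hp at 7.40 (5.16 to 10.3) against 6.99 (4.81 to 9.81), Ctla2a at 5.71 against 4.45 and Timp1 at 38.3 (32.9 to 44.3) against 39.6 (34.1 to 45.7), all with overlapping intervals. Col1a1 was at 712 (688 to 737) against 635 (612 to 658), but 1 cell held 263 of its 3366 UMIs in the 406. Its level without that cell was not computed. List medians ran close to 1. Of 4 acute phase genes compared 0 were higher (median ratio 1.06), and of 21 quiescent stellate genes 0 were lower (1.03). The zonation score, the mean standardized level of portal minus central genes in cells thinned to 4000 UMIs, was -0.01 ± 0.52 (SD, 397 cells) against -0.07 ± 0.49 (397 cells). Collagen UMIs were 15.6 ± 17.5 against 14.4 ± 11.2, with medians of 12 and 11.

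**Figure D5:**
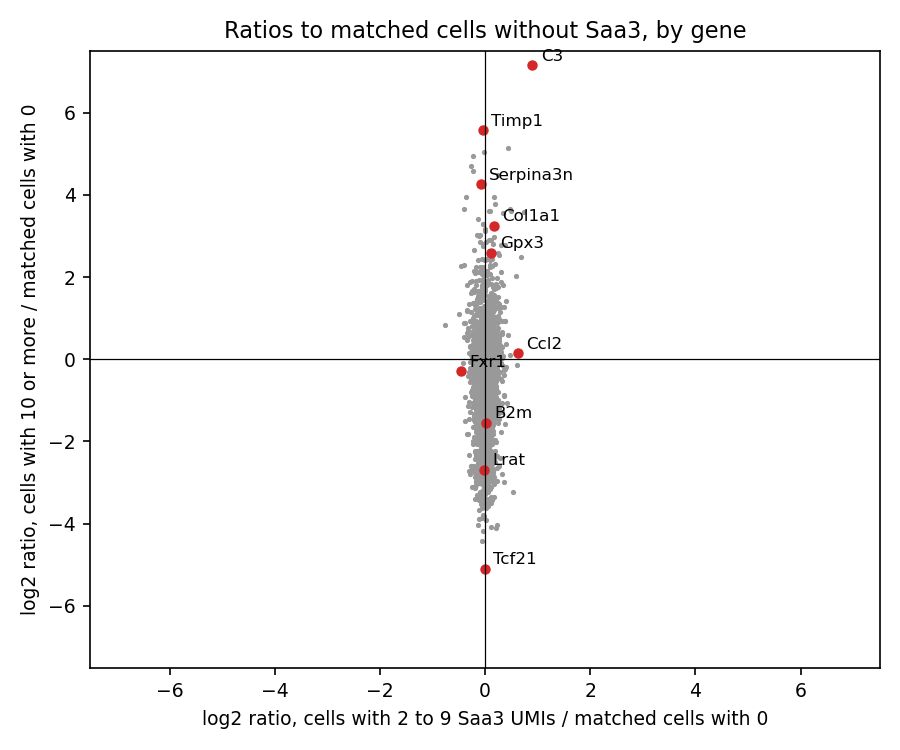
Log2 ratio to matched cells without Saa3 for the 3181 genes compared in both sets, in the 406 cells with 2 to 9 Saa3 UMIs (x axis) and in the 21 cells with 10 or more (y axis), on equal axes. Red points are named genes. On the x axis 3175 genes lie within 1.5-fold, and on the y axis 1604.

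All 427 cells together were compared with 427 matched cells by the same rule as the 406. Of 5618 genes, 77 were higher (1.37%) and 10 lower (0.178%). The 15 highest, by the rule for named genes, were Ctla2a, Serpinf1, Hp, C3, Fabp4, Lcn2, Timp1, S100a6, Trf, Serpina3n, Gm2a, Il33, Mgst1, Ndufa4l2 and Meg3, with ratios from 68.3 down to 2.01. The share of cells with a UMI differed much less, with Ctla2a in 8.43% against 4.45% and Timp1 in 34.2% against 34% of cells. Of the 77 genes, 38 were compared in the 406 cells, which are most of the 427, and 8 were higher there. The 10 lowest of the named genes, among them Cenpa, Hmgb2, Fxr1 and Cxcl10, had ratios of 0.699 to 0.773, above the limit for a call. Against all cells without Saa3, unmatched for depth, the ratio of Cenpa was 1.39 and that of Hmgb2 1.22. That of Lcn2 was 32.2 there, against 7.70 with matched cells, so that its place among the 15 depends on the comparison cells.

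At 72 h, a library the selection did not use, the 19 cells with at least 2 Saa3 UMIs were compared with 19 matched cells. Lrat was at 256 CPM (199 to 325) against 1067 (945 to 1200) and Reln at 210 (158 to 274) against 539 (454 to 636). Lcn2 was at 134 CPM (93.2 to 186) against 1 UMI, C3 at 122 (83.7 to 173) against 0 UMIs, at least 10.7-fold higher, Serpinf1 at 203 (152 to 265) against 1 UMI, Timp1 at 604 (514 to 706) against 145 (103 to 199) and Mt2 at 4745 (4485 to 5017) against 405 (332 to 490). For 3 of these genes 1 cell held much of the level. Without the cell with the most UMIs, Mt2 was at 1592 CPM (1438 to 1759), Lcn2 at 49.3 (25.4 to 86.0) and C3 at 69.8 (40.6 to 112), each still above the interval of the matched cells. Hp and Ctla2a had 1 UMI each in the 19 cells. Of 20 quiescent stellate genes compared at 72 h, 16 were at least 1.5-fold lower and 0 higher. Of 9 fibroblast markers 2 were compared, and both were higher, Dpt at 283 CPM (222 to 355) against 45.9 (23.7 to 80.1) and Gpx3 at 432 (356 to 520) against 134 (93.2 to 186). Among those in too few cells to be compared, Fbln2 was at 34.4 (15.7 to 65.3) against 7.65 (0.926 to 27.6), with overlapping intervals. Col15a1 and Entpd2, with UMIs in 5 cells each, were at 45.9 and 34.4 CPM against 0 UMIs. The part of fibroblast markers in the low stellate levels was not tested. Of 23 fibrillar collagen and activation genes compared at 72 h, 4 were at least 1.5-fold higher and 5 lower. Col1a1, Col1a2 and Col3a1 had ratios of 1.29, 1.14 and 1.15. Interferon response genes had 2 of 20 higher and 3 lower, and immediate early genes 1 of 10 higher and 8 lower. Over all 4972 genes 1022 were at least 1.5-fold higher and 965 lower, so that ratios past 1.5-fold were common between these small sets.

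The 19 cells were not alike. The 10 with 10 or more Saa3 UMIs held all 53 Serpinf1, 34 of the 35 Lcn2 and 30 of the 32 C3 UMIs. They had Lrat at 111 CPM (66.9 to 174) and Reln at 140 (90.0 to 209), against 530 (390 to 702) and 342 (232 to 485) in the 9 cells with 2 to 9 UMIs. Of the 10, 6 held at least 3 of 6 fibroblast markers, against 0 of the 9 and 696 of the 7267 cells without Saa3. These sets were not matched for depth, with medians of 17899.5, 12380 and 11338 UMIs. Dpt and Gpx3 UMIs were each in 8 of the 10 and Col15a1 UMIs in 5, whereas 1 cell held all 24 Clec3b UMIs and all 55 of Pi16, a marker of adventitial fibroblasts.

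These 10 cells held 10 to 44 Saa3 UMIs, at 1405 CPM, against 60250 CPM in the 21 cells at 6 weeks, and some of the leading genes of the 21 were found in them. Compared with 50 matched cells at 72 h, Serpinf1 was at 310 CPM (232 to 406) against 24.6 and C3 at 176 (118 to 251) against 2.34. Ptgs2 was at 105 CPM (62.4 to 166) against 2.34 and Pdpn at 93.6 (53.5 to 152) against 1.17. Cyp1b1 was at 81.9 CPM (44.8 to 137) against 3.51 and Igfbp6 at 70.2 (36.3 to 123) against 1.17, where 1.17 CPM stands for 1 UMI in the matched cells. UMIs of each of these 6 genes were in 3 to 5 of the 10 cells, but 1 cell, the one with the Clec3b UMIs, held 14 of the 16 Pdpn, 10 of the 12 Igfbp6 and 15 of the 30 C3 UMIs. Without it Pdpn and Igfbp6 had 2 UMIs each and C3 was at 98.0 CPM (54.9 to 162). Fbln2 was at 41.0 CPM (16.5 to 84.4) against 14.0, with 4 of its 7 UMIs in that cell, Hp and Fndc1 had 1 UMI each, and Ctla2a, Slpi, Egln3, Serpinb2, Dmkn and Tnfrsf9 had 0.

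In the fibroblast isolation the 3 CCl4 cells and the 1 uninjured cell with 10 or more Saa3 UMIs had 0 UMIs of Lrat and Reln, and C3 at 2258 and 1837 CPM. Fibroblast-marked cells of that isolation at 6 weeks, 3220 cells with at least 3 of 6 fibroblast markers and no Lrat or Reln UMI, had C3 at 866 CPM, Serpinf1 at 1688, Fbln2 at 320 and Clec3b at 2262, with Hp at 8.24, Lcn2 at 2.84, Ctla2a at 6.26 and Saa3 at 5.40 CPM.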

How the data were processed

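Cells of 5 10X libraries were used, and 6 Smart-seq2 plates were not used here. Per the labels the authors aligned 10X reads to mm10 with Cell Ranger 2.1.0, and the deposited matrices hold raw UMI counts. Genes were found by the symbols of the files, positions by GENCODE M21 and promoters by RefSeq, all on GRCm38. Cebpd and Ccn2 were not analysed here. The values of 1 list member are not reported here.

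The members and gene lists were chosen with earlier results of these data known, and the division at 10 UMIs and its comparison rule after the distribution of Saa3 was seen. Levels are CPM of summed UMIs with Saa3 left out of the total, with exact Poisson intervals, shares have Clopper-Pearson intervals, and a count of 0 was set to 3 counts in ratios. Cells without Saa3 were matched on the other UMIs without replacement, 1 for each cell, or 5 for each of the 21 cells (median 17798 against 17785 UMIs, largest gap in depth 38.2%, against 10.3% for the 406 and 13% for the 427). Cells are not replicates, so no p-value was computed. Named genes were the 15 highest and 10 lowest ratios with at least 50 CPM and UMIs in 5% of cells of the higher group, for each list the 2 highest and lowest and the most abundant member, and fixed genes. The same rule was applied to the 21 cells. Other genes named were chosen after their values were seen. Doublets, 238 in the library, were called by the share of simulated doublets among 50 neighbours, at 0.8% per 1000 cells. Scripts ran in Python 3.11.15 and were tested on simulated data. Total UMIs ranged from 25965670 to 86664085 per library and were 52235706 in the 6-week HSC library.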

Additional observations from a re-analysis of the deposited data

Results flagged for a closer look

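Ndufa4l2, a gene of the mitochondrial respiratory chain that hypoxia induces, had ratios on opposite sides of 1 in the HSC libraries. In cells with at least 2 Saa3 UMIs against matched cells it was 2.13 at 6 weeks and 0.357 at 72 h. At 72 h the levels were 19.1 CPM (6.21 to 44.6) against 53.5 (29.3 to 89.8), from 5 and 14 UMIs and with overlapping intervals, and at 6 weeks the ratio was 1.13 in the 406 cells with 2 to 9 UMIs. The difference between the libraries was not tested.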

How the results depend on the processing

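The share of cells counted as Saa3-positive followed the threshold and the depth. It was 33.6% at 1 UMI, 1.8% at 3, 0.385% at 10 and 0.807% after thinning to 2000 UMIs.

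The 77 higher genes became 8 at a threshold of 1 UMI, 388 at 3, 1043 at 5 (23 cells), 15 with 2 to 9 UMIs, 51 with the mean of per-cell CPM, 142 after thinning to 4000 UMIs, 47 without cells holding 3 markers of another type, 29 and 308 with floors of 50 and 5 CPM, and 49 at 2-fold. The 10 lower genes became 0, 447 and 2277 at thresholds of 1, 3 and 5 UMIs, 0 against all cells unmatched, 2 with depth weights, 116 after thinning to 4000 UMIs, 81 without cells holding 3 markers of another type, 0 and 176 with floors of 50 and 5 CPM, and 2 at 2-fold. Of 361 list members counted, 16 passed 1.5-fold, beside the 77 higher and 10 lower of all 5618 genes. The 16 became 4, 76 and 191 at thresholds of 1, 3 and 5 UMIs, 7 without cells holding 3 markers of another type and 2 with 2 to 9 UMIs. The counts over all genes, given above, also rose at thresholds of 3 and 5 UMIs. Of the 15 highest genes, 7 passed 1.5-fold at a threshold of 1, 4 without cells holding 3 markers of another type and 2 with 2 to 9 UMIs. Leaving out cells with 3 markers of another type kept 234 of the 427 cells and 0 of the 21. The range of 2 to 9 UMIs leaves out the 21 cells by construction. The marker filter left out 1926 cells of the library, so that it changed more than the 21 cells. For changes other than those with 2 to 9 UMIs the cause was not tested.

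Without cells holding 3 markers of another type, ratios turned to 1 (0.9996 for Hp) or below for C3 (0.488), Timp1 (0.7997), S100a6 (0.955), Gm2a (0.961), Mgst1 (0.573) and Col1a1 (0.83), and with 2 to 9 UMIs for Timp1 (0.967), Serpina3n (0.945), Gm2a (0.99), Mgst1 (0.83) and Meg3 (0.856). Col1a2 (0.981) and Col3a1 (0.953) also fell below 1 without cells holding 3 markers of another type. For the 21 cells, 372 higher genes were 356 to 388 without the 3 cells with the most Ctla2a UMIs, against unmatched cells and with the mean of per-cell CPM, all chosen after seeing the data, as was the range of 2 to 9 UMIs. Levels without the cell with the most UMIs of a gene and list counts over members that reached the floor in matched cells were also chosen after seeing the data. No paired analysis was possible because each condition had 1 library. Counting error alone is covered by the intervals, and the 21 cells may come from any of the 3 mice.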
